A study of Mus musculus with 21 samples.

Results

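The 7 genes of the Fos and Jun families, Fos, Fosb, Fosl1, Fosl2, Jun, Junb and Jund, were followed by RNA-seq in the midbrain of 21 mice. They were found by gene name, 7 of 7 in both deposited tables, which list 33829 genes for a pre-treatment experiment and 55385 genes for a delayed treatment experiment. A filter on low counts kept 6 of the 7 among 22641 tested genes in the first table, where Fosl1 did not pass, and 7 of the 7 among 21922 in the second. The family was chosen with results of both experiments known. Which values were used is not recorded, and it was treated as chosen by the log2 fold changes of the pre-treatment experiment, since Atf3, Apold1 and other immediate early genes were already known to be lower there in the mice given irisin before MPTP. Its comparisons are given as a description without p-values, and its counts of genes past the threshold are no evidence of their own. Tests with p-values are given for the delayed treatment experiment, whose 12 mice were other animals. Its results were also known when the family was chosen, so these p-values may not be independent of the choice.

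All mice were male C57BL/6 mice, 6 weeks old by the sample labels, and each of the 7 groups held 3 of them. MPTP is a neurotoxin that damages dopaminergic neurons of the substantia nigra and is used to model Parkinson's disease, and irisin is a muscle hormone cleaved from FNDC5. Every agent was injected intraperitoneally, at daily doses of 30 mg/kg for MPTP and 200 μg/kg for irisin, with ddH2O as the vehicle. In the pre-treatment experiment, control mice (Control_M) had ddH2O for 10 days, MPTP mice (MPTP_M) had ddH2O for 5 days and then MPTP for 5 days, and irisin pre-treated mice (Irisin_MPTP_M) had irisin for 5 days and then MPTP for 5 days. In the delayed treatment experiment, control mice (CONTROL) had ddH2O for 10 days, irisin mice (IRISIN) had ddH2O for 5 days and then irisin for 5 days, MPTP mice (MPTP) had MPTP for 5 days and then ddH2O for 5 days, and delayed irisin mice (MPTP_IRISIN) had MPTP for 5 days and then irisin for 5 days. The pre-treatment experiment had no group given irisin without MPTP. The labels call the tissue midbrain, and by the methods it was nigral tissue cut out manually from perfused brains.

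AP-1 is a transcription factor made of 2 proteins joined by leucine zippers, usually one of the Fos family and one of the Jun family. Jun proteins can pair with each other, whereas Fos proteins need a Jun partner to bind DNA. Fos, Fosb, Jun and Junb are immediate early genes, whose transcription starts within minutes of neuronal activity, growth factors or stress and needs no new protein, and Fos mRNA is widely used as a mark of recently active neurons. Jund is made at a steadier level in most cells. In whole tissue, fewer cells with a transcript and less transcript in each cell cannot be told apart.

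The stretches just upstream of the start sites carry some of the short elements known to switch these genes on, so 4 are shown. They are from the RefSeq promoter windows on GRCm38.p6 (250 bases before and 50 bases after each start, matched for 6 of the 7 members, all but Fosl1). Each run is the 120 bases before the start, read 5′ to 3′ on the strand of the gene. Capitals mark matches to TGACG, the core of the element bound by CREB and ATF proteins, to TGACATCA, the proximal Jun site bound by Jun and ATF2, and to the TATA motif TATAA.
Fos (chr12:85473770-85473889, + strand): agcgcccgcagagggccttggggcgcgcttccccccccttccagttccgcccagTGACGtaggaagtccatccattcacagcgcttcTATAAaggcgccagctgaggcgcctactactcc
Fosb (chr7:19310046-19310165, − strand): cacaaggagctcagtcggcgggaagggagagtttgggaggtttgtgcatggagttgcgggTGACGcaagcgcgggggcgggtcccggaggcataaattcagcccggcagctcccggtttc
Jun (chr4:95052223-95052342, − strand): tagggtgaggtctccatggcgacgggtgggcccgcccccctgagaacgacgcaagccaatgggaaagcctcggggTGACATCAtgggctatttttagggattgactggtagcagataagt
Junb (chr8:84978749-84978868, − strand): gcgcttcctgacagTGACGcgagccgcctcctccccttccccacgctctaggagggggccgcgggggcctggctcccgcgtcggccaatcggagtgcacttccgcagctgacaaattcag

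Of 32851 RefSeq windows of the same length, searched on both strands, 20.8% held TGACG, 24.9% held TATAA and 3.62% held TGACATCA. The core TGACG was found in 3 of the 6 members' windows, at −66 to −62 and −129 to −125 in Fos, at −60 to −56 in Fosb and at −106 to −102 in Junb, counted from the RefSeq start. TGACATCA was found in Jun alone, at −45 to −38, and TATAA in Fos at −33 to −29 and in Junb at 1 to 5 after the start. The full cyclic AMP element TGACGTCA (1.79% of all windows), which contains TGACG, the AP-1 site TGANTCA (7.81%) and the CArG box bound by SRF (1.63%) had no match in the 6 windows, and Fosl2 and Jund held none of the 6 motifs. The windows end 250 bases before each start, so elements farther upstream were not searched, and no match here does not mean that a gene lacks the element. A match here is a run of letters and not a measured binding site.

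The gene models are those of GRCm38, since the coordinates of 7 of 7 members in both tables are the same as in GENCODE M21. Fos (ENSMUSG00000021250) lies at chr12:85473890-85477273 on the + strand, Fosb (ENSMUSG00000003545) at chr7:19302696-19310051 on the − strand, Fosl1 (ENSMUSG00000024912) at chr19:5447547-5455946 on the + strand and Fosl2 (ENSMUSG00000029135) at chr5:32135801-32157842 on the + strand. Jun (ENSMUSG00000052684) lies at chr4:95049034-95052222 on the − strand, Junb (ENSMUSG00000052837) at chr8:84974484-84978718 on the − strand and Jund (ENSMUSG00000071076) at chr8:70698949-70700616 on the + strand. Counts are over each whole gene model. A gene on the opposite strand overlaps 4 of them, Ccdc85b over 2767 bases of Fosl1, Junos over 689 bases of Jun, Prdx2 over 351 bases of Junb and Gm11175 over 919 bases of Jund. Whether counting used the strand is not given in the sources used here, so reads from these overlaps could not be assigned with certainty.

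Libraries of the delayed treatment experiment summed to 48.8 to 77.2 M counts (M for mega) and those of the pre-treatment experiment to 66.7 to 75.6 M, which gave 120 to 3886 counts per mouse for each member but Fosl1. Dopaminergic neuron markers, which define the labelled tissue, were detected 7 of 7 in 18 mice, and Pitx3 had a count of 0 in the other 3. Choroid plexus markers, such as Ttr, were highly uneven between mice of one group. MPTP mouse 2 of the pre-treatment experiment had a summed level of 1640 CPM (counts scaled to 1 M reads of the library) of them, while the other 8 mice of that experiment held 10.4 to 27.4 CPM, and the delayed treatment experiment ranged from 41.3 to 1658 CPM.

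Per unit of length, Jund was the most abundant member in every group and Fosl1 the least. Levels are given in FPKM, mapped fragments scaled to gene length and library size, as the authors deposited them, and the tables of the experiments were made separately, so levels are not tested across them. In control mice of the pre-treatment experiment the order was Jund at 21.0 ± 3.25 FPKM (SD, n = 3), Jun at 11.8 ± 0.764, Fos at 11.2 ± 2.95, Junb at 4.45 ± 1.43, Fosl2 at 1.05 ± 0.0250, Fosb at 0.636 ± 0.219 and Fosl1 at 0.0457 ± 0.0254 FPKM. The same order was found in 6 of the 7 groups. In delayed irisin mice Fos, at 14.3 ± 0.634 FPKM, stood above Jun, at 13.2 ± 0.772 FPKM, with overlapping mice. Jun and Fos overlapped in all groups except irisin pre-treated mice, Fosl2 and Fosb overlapped in irisin pre-treated mice and in control mice of the delayed treatment experiment, and no other neighbours in the order overlapped.

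**Figure D1:**
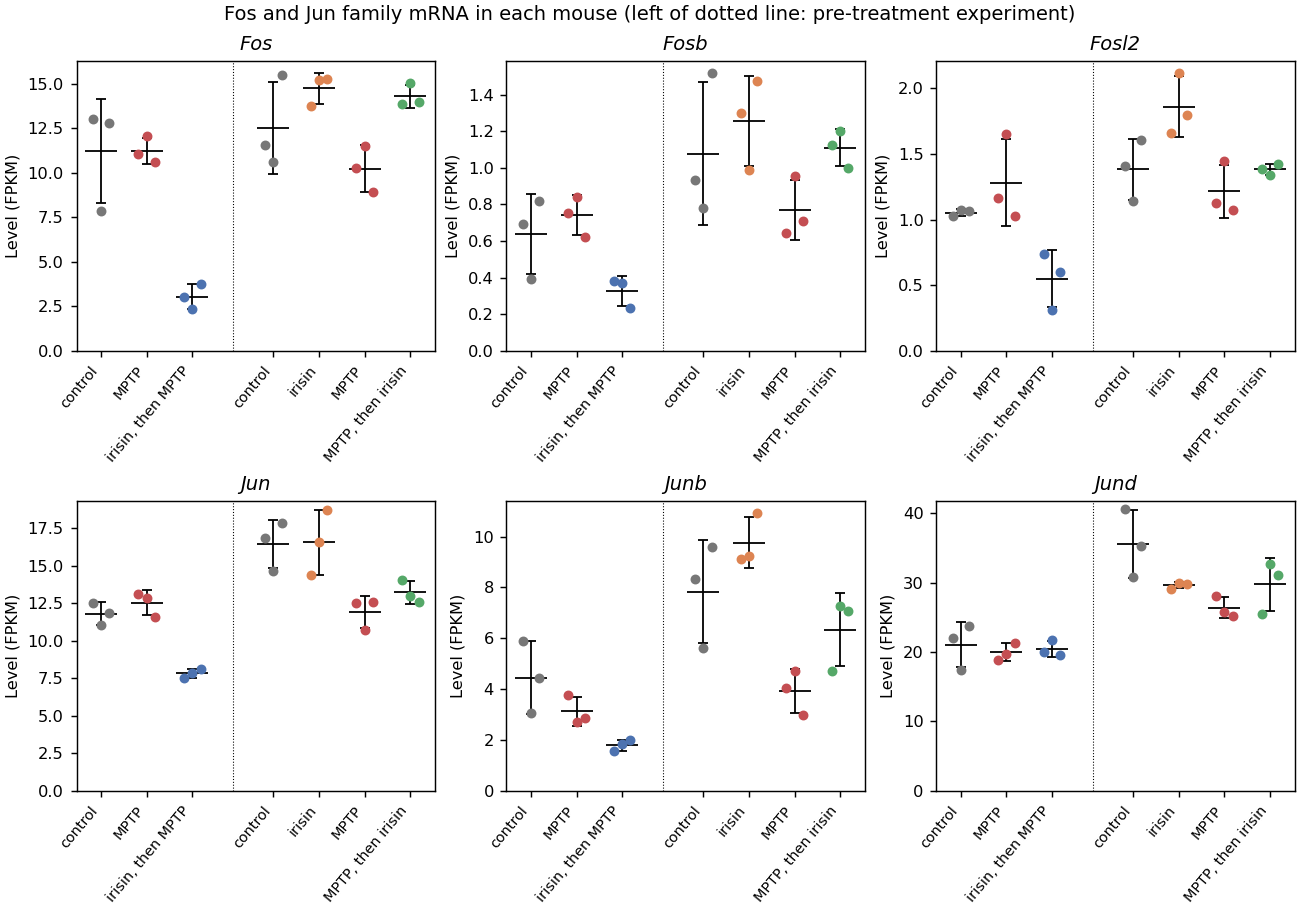
Level of the 6 members with more than a few counts in each of 21 mice (points, FPKM, axis from 0), with mean and SD of 3 mice (bars). To the left of the dotted line are the groups of the pre-treatment experiment, where the 3 irisin pre-treated mice (blue) are below the other 6 for every gene but Jund, and to the right are those of the delayed treatment experiment.

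In the pre-treatment experiment, the mice given irisin before MPTP had less mRNA of 5 of the 6 tested members than MPTP mice, with no overlap between the groups, while Jund, the steadier member, was level. The sizes ran from 1.60-fold for Jun to 3.67-fold for Fos. The median log2 fold change of the 6 was −0.98, beside 0.00 over all 22641 genes. Between MPTP and control mice, 3 of the 6 were higher and 3 lower in value, from −0.51 for Junb to 0.27 for Fosl2.

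Fos encodes the founding member of the family, and its level stood farthest apart. It was at 13.0, 7.83 and 12.8 FPKM in the control mice, at 11.0, 12.04 and 10.6 in the MPTP mice and at 3.04, 2.34 and 3.75 in the irisin pre-treated mice. The 3 pre-treated mice were all low, while the control and MPTP mice overlapped. The log2 fold change was −1.88 (SE 0.22) against MPTP mice and −1.88 (SE 0.22) against control mice, and −0.00 (SE 0.21) between MPTP and control mice.

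Fosb, whose truncated product ΔFosB builds up in neurons on repeated stimulation, was at 0.694, 0.394 and 0.820 FPKM in control mice, 0.756, 0.840 and 0.623 in MPTP mice and 0.382, 0.370 and 0.234 in irisin pre-treated mice. The pre-treated mice were again the lowest 3, but the highest of them was close to the lowest control mouse. The log2 fold change against MPTP mice was −1.16 (SE 0.29), and gene counts do not separate FosB from ΔFosB transcripts. Fosl2, which encodes Fra-2, was at 1.02, 1.07 and 1.06 FPKM in control mice, 1.16, 1.65 and 1.03 in MPTP mice and 0.735, 0.312 and 0.604 in irisin pre-treated mice. Its log2 fold change was −1.21 (SE 0.29), and MPTP mouse 2 was well above the other MPTP mice. Fosl1, which encodes Fra-1, had 3 to 11 counts in control and MPTP mice and 6, 0 and 10 counts in irisin pre-treated mice, too few for a difference to be detectable.

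Jun, the partner that gives AP-1 its strongest activation, was at 12.6, 11.0 and 11.9 FPKM in control mice, 13.1, 12.9 and 11.6 in MPTP mice and 7.54, 7.87 and 8.12 in irisin pre-treated mice. Mice of a group differed little for Jun, and its log2 fold change of −0.67 against MPTP mice had the smallest error of the family (SE 0.07). Junb, which in many settings restrains the action of Jun, was at 5.90, 3.05 and 4.42 FPKM in control mice, 3.79, 2.71 and 2.87 in MPTP mice and 1.55, 1.83 and 1.99 in irisin pre-treated mice. The log2 fold change of Junb was −0.80 (SE 0.23) against MPTP mice and −1.31 (SE 0.24) against control mice, and it was −0.51 (SE 0.23) between MPTP and control mice, whose values overlapped. Jund was at 22.0, 17.4 and 23.7 FPKM in control mice, 18.9, 19.7 and 21.4 in MPTP mice and 20.1, 21.7 and 19.6 in irisin pre-treated mice, which lay among the others. Its log2 fold change was 0.03 (SE 0.11) against MPTP mice.

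With edgeR's quasi-likelihood test and an adjusted p under 0.05, 2 of the 6 members, Fos and Jun, passed as lower in irisin pre-treated than in MPTP mice, where 0.0707% of all tested genes passed. They also passed against control mice, again beside 0.0707%, and 0 of 6 passed between MPTP and control mice, beside 0.0221%. Since these values chose the family, the counts carry no weight of their own. Groups did not overlap for 5 of 6 members against MPTP mice and for 5 of 6 against control mice, where 14.2% and 13.6% of all genes did not overlap in either direction, and for 0 of 6 between MPTP and control mice, beside 11.6%. The count of 2 rested on the full set of mice. Against MPTP mice it was 1 (Jun) without MPTP mouse 3 and 0 without each of the other 2 MPTP mice or each of the 3 irisin pre-treated mice, and against control mice it was 1 (Fos) without control mouse 2 and 0 without any other mouse of those groups. The log2 fold change against MPTP mice then ranged from −2.05 to −1.72 for Fos and from −0.72 to −0.64 for Jun.

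Markers of some other cells also differed in this comparison. The choroid plexus markers had a median log2 fold change of −2.35 between irisin pre-treated and MPTP mice, 6 of 6 lower, with MPTP mouse 2 far above the other MPTP mice. MPTP mice 1 and 3, at 12.1 and 12.8 CPM, lay within the 10.4 to 27.4 CPM of irisin pre-treated mice. Against control mice the median of these markers was 0.33, with 5 of 6 higher. Without MPTP mouse 2 the log2 fold change was −1.83 for Fos, −1.07 for Fosb, −0.996 for Fosl2, −0.67 for Jun and −0.90 for Junb. Red blood cell markers summed to 231 to 455 CPM in irisin pre-treated mice, 549 to 810 CPM in MPTP mice and 530 to 826 CPM in control mice, with 5 of 5 lower against MPTP mice and a median of −0.93. Their part in the result was not tested. Dopaminergic neuron markers were lower in 7 of 7 genes (median −0.31), with summed levels of 531 to 621 CPM in irisin pre-treated mice that overlapped those of MPTP mice (526 to 835 CPM), and 0 of the genes of any of these lists passed the test. Endothelial, mural, microglial, astrocyte, oligodendrocyte and neuron markers had medians between −0.09 and 0.07.

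**Figure D2:**
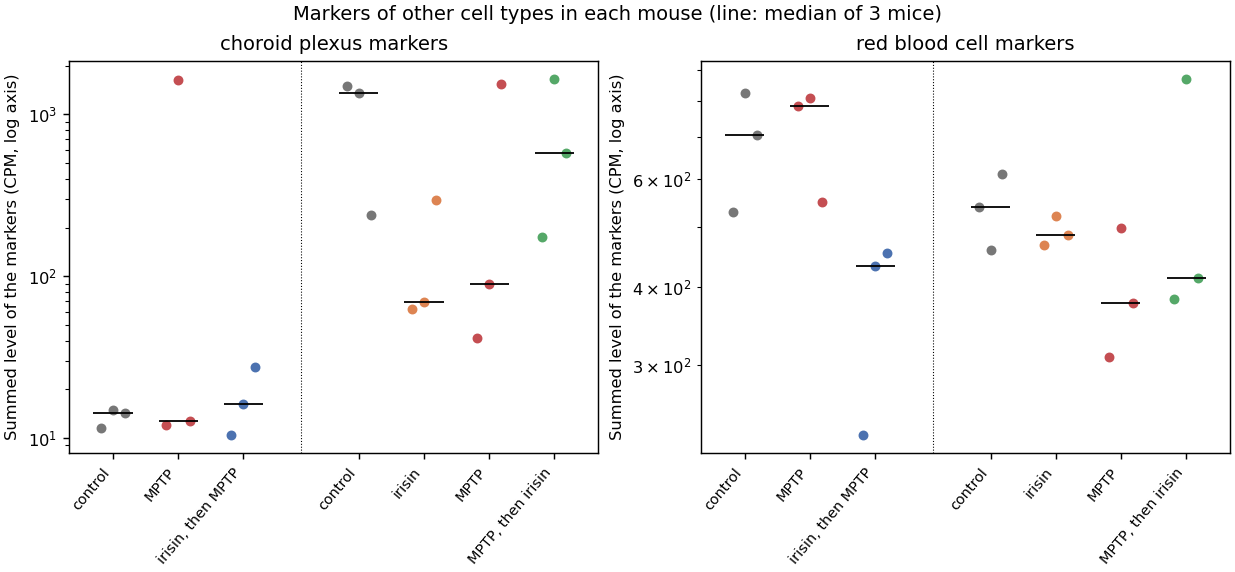
Summed CPM (log axis) of 6 choroid plexus markers and 5 red blood cell markers in each of 21 mice (points), with the median of each group of 3 (lines). One MPTP mouse of the pre-treatment experiment, at 1640 CPM of choroid plexus markers, stands apart from its group, and the 3 irisin pre-treated mice have the lowest red blood cell markers of their experiment.

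In the deposited FPKM, the irisin pre-treated mice were below every mouse of the other experiment for the same 5 genes. This is a description, since levels are not tested across the separately made tables. The highest pre-treated mouse had 3.75 FPKM of Fos, whereas the lowest of the other 18 mice had 7.83 FPKM, and for Jun these values were 8.12 and 10.7 FPKM. For Jund, 14 of the 18 other mice were above the highest pre-treated mouse, and all 12 mice of the delayed treatment experiment had more Jund than any mouse of the pre-treatment experiment, from tables that were made separately.

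The make-up of the family shifted with the levels. Shares are made from the same FPKM, so they restate levels treated as having chosen the family and are no further result. Fos was 22.0% ± 2.50 (SD, n = 3) of the summed FPKM of the 7 genes in control mice, 22.9% ± 1.08 in MPTP mice and 8.95% ± 2.07 in irisin pre-treated mice. Jund was 41.9% ± 1.89, 40.9% ± 3.06 and 60.1% ± 3.03 in the same groups. Jun kept 23.8% ± 2.83, 25.6% ± 1.41 and 23.0% ± 0.549. The summed level was 50.3 ± 8.20, 48.95 ± 0.887 and 34.0 ± 0.597 FPKM.

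**Figure D3:**
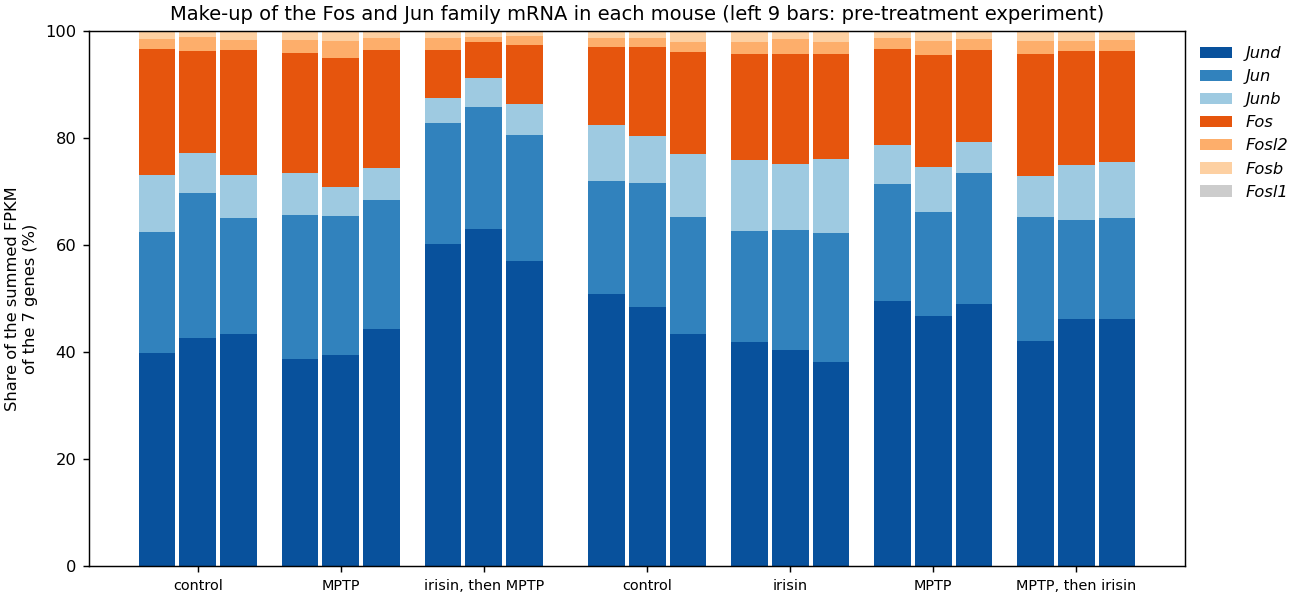
Share of each of the 7 genes in their summed FPKM, 1 bar per mouse (%), Jun family in blues and Fos family in oranges, with Fosl1 too small to see. In the 3 irisin pre-treated mice Jund makes up 57.0 to 63.0% and Fos 6.81 to 10.9%, while in the other 18 mice Jund stays at 38.2 to 50.9%.

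In the delayed treatment experiment, which asks what irisin does by itself and after MPTP, none of the 7 members passed the test in any comparison. In value, the 6 members other than Fosl1 were lower in MPTP than in control mice, with Junb 2.03-fold lower and Jun, Jund and Fosb 1.37 to 1.42-fold lower. The same 6 were higher in delayed irisin than in MPTP mice, and Fosl1 had too few counts for a direction to be given. Adjusted p-values were 0.243 or more throughout, by edgeR (quasi-likelihood) and Benjamini and Hochberg's correction over 21922 genes.

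With irisin by itself, neither Fos nor Jun passed the test against control mice. Fos was at 11.5, 10.6 and 15.5 FPKM in control mice and 13.7, 15.2 and 15.3 in irisin mice, with a log2 fold change of 0.22 (SE 0.14, edgeR adjusted p = 0.661). Control mouse 3 lay among the irisin mice. Jun was at 16.9, 14.7 and 17.8 FPKM in control mice and 14.4, 16.6 and 18.8 in irisin mice, a log2 fold change of −0.00 (SE 0.11, adjusted p = 0.998), whose sign turned with the scaling. Fosl2 was at 1.40, 1.14 and 1.60 FPKM in control mice and 1.66, 2.12 and 1.80 in irisin mice, all 3 above the controls, with a log2 fold change of 0.41 (SE 0.15, unadjusted p = 0.0186, adjusted p = 0.505 in edgeR). Jund went the other way, from 40.6, 30.9 and 35.3 FPKM in control mice to 29.1, 30.0 and 29.9 in irisin mice, all 3 below the controls, with a log2 fold change of −0.28 (SE 0.11, unadjusted p = 0.0317, adjusted p = 0.531 in edgeR). Fosb and Junb overlapped between the groups, with log2 fold changes of 0.20 (SE 0.25) and 0.30 (SE 0.23). By adjusted p, 0 of 7 members passed, beside 0.109% of all genes, and the groups did not overlap for 2 of 7, beside 15.1%. The unadjusted p was under 0.05 for 2 of 7 members and 8.97% of all genes, and DESeq2 also called 0 members. Choroid plexus markers were lower in 6 of 6 genes in irisin mice (median −1.87, summed levels of 62.8 to 297 CPM against 238 to 1508 CPM in control mice). Dopaminergic neuron markers were lower in 7 of 7 (median −0.17, 614 to 625 CPM against 662 to 698 CPM, without overlap). The part of either in these values was not tested.

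With MPTP followed by 5 days of vehicle, the 3 Jun family genes had lower values than in control mice, none past the test. Junb was at 8.33, 5.61 and 9.57 FPKM in control mice and 4.06, 4.72 and 2.99 in MPTP mice, without overlap, and its log2 fold change was −1.02 (SE 0.24, unadjusted p = 0.00118, adjusted p = 0.247 in edgeR). Jun was at 12.5, 10.7 and 12.6 FPKM in MPTP mice, all below the controls, with a log2 fold change of −0.49 (SE 0.11, adjusted p = 0.243 in edgeR). Jund was at 28.1, 25.8 and 25.3 FPKM in MPTP mice, again all below the controls, with a log2 fold change of −0.46 (SE 0.11, adjusted p = 0.293 in edgeR). Fos was at 10.3, 11.5 and 8.89 FPKM, which overlapped the controls, and its log2 fold change was −0.32 (SE 0.14, adjusted p = 0.573 in edgeR). Fosb and Fosl2 also overlapped, at −0.51 (SE 0.25) and −0.21 (SE 0.15) on the log2 scale. Groups did not overlap for 3 of 7 members, beside 16.2% of all genes, and 0 of 7 passed by adjusted p, beside 0.132%. The unadjusted p was under 0.05 for 4 of 7 members and 8.33% of all genes, and DESeq2 without a filter called Jun, Junb and Jund, 3 of 7. The share of all genes that DESeq2 called is not given here, so its count has no background beside it. Dopaminergic neuron markers were lower in 7 of 7 genes in these MPTP mice (median −0.41, summed levels of 451 to 578 CPM against 662 to 698 CPM), red blood cell markers in 5 of 5 (median −0.42, 309 to 500 CPM against 459 to 609 CPM) and choroid plexus markers in 6 of 6 (median −0.65, 41.3 to 1545 CPM against 238 to 1508 CPM). Their part in the result was not tested.

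Irisin after MPTP gave higher values of all 6 members other than Fosl1 than MPTP alone, by a median of 0.34 on the log2 scale, with none past the test. Fos was at 13.9, 15.0 and 14.0 FPKM in delayed irisin mice, all above the 3 MPTP mice, with a log2 fold change of 0.49 (SE 0.14, unadjusted p = 0.00471, adjusted p = 0.9995 in edgeR). Fosb was at 1.13, 1.20 and 1.001 FPKM against 0.645, 0.957 and 0.709 in MPTP mice, again without overlap, with a log2 fold change of 0.53 (SE 0.25). Jun, at 14.1, 13.0 and 12.6 FPKM, was just above the MPTP mice, with a log2 fold change of 0.16 (SE 0.11). Junb was at 4.70, 7.26 and 7.06 FPKM, and its log2 fold change of 0.70 (SE 0.23, unadjusted p = 0.0124 in edgeR) came with overlapping groups, since delayed irisin mouse 1 lay among the MPTP mice. Jund and Fosl2 overlapped, at 0.18 and 0.19 on the log2 scale. The groups did not overlap for 3 of 7 members, beside 10.7% of all genes, and 0 of 7 passed, beside 0.00456%. The unadjusted p was under 0.05 for 2 of 7 members and 3.90% of all genes, and DESeq2 called 0. Red blood cell markers were higher in 5 of 5 genes (median 0.48, 383 to 870 CPM against 309 to 500 CPM) and choroid plexus markers in 6 of 6 (median 0.33), while dopaminergic neuron markers were lower in 6 of 7 (median −0.23), and their part was not tested.

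Whether the irisin difference depended on MPTP was tested as an interaction, the difference of delayed irisin from MPTP mice less that of irisin from control mice. Its log2 value was 0.46 (SE 0.16, unadjusted p = 0.0150, adjusted p = 0.893 in edgeR) for Jund and lay between −0.22 and 0.40 for the other members but Fosl1. By adjusted p, 0 of 7 members passed, beside 0.0411% of all genes. The unadjusted p was under 0.05 for 1 of 7 members and 5.57% of all genes, and DESeq2 called 0. Choroid plexus markers had a positive interaction in 6 of 6 genes (median 2.28) and red blood cell markers in 5 of 5 (median 0.54), and their part was not tested. Fosl1 had 0 to 14 counts in the 12 mice of this experiment, and no fold is given for it.

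**Figure D4:**
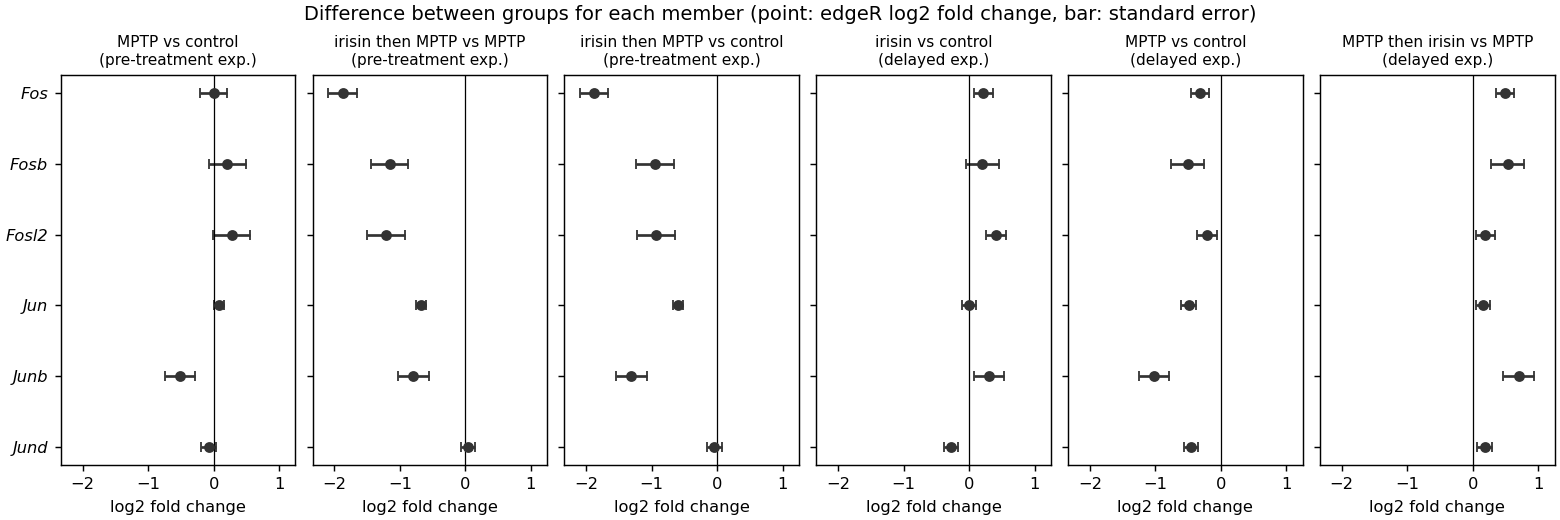
Log2 fold change (points) and its standard error (bars) of 6 members in the 6 comparisons of groups, from edgeR. The 2 comparisons of irisin pre-treated mice reach −1.88 for Fos and leave Jund near 0, and those of the delayed treatment experiment lie between −1.02 and 0.70.

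Members rose and fell together between mice to different degrees. Across the 9 mice of the pre-treatment experiment, which share the group difference above, Pearson's r of log2 CPM with Fos was 0.97 for Jun, 0.87 for Fosl2, 0.86 for Junb, 0.85 for Fosb and 0.09 for Jund. Across the 12 mice of the delayed treatment experiment it was 0.88 for Fosb, 0.82 for Junb, 0.80 for Fosl2, 0.52 for Jun and 0.34 for Jund. Among 21152 genes tested in both experiments, those with the highest mean r with Fos were Nr4a1, an activity-induced nuclear receptor (0.91), Btg2, an antiproliferative immediate early gene (0.88), Dusp1, a phosphatase of MAP kinases (0.86), Fosb (0.86) and Apold1, an immediate early gene of endothelial cells (0.85). For Jun they were Sik1, a salt-inducible kinase (0.92), Btg2 (0.92), Apold1 (0.88), Nr4a1 (0.84) and Ier2 (0.84). These correlations are over mice of all groups and are a description.

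Of 24 other immediate early genes, 22 were lower in value in irisin pre-treated than in MPTP mice, with a median log2 fold change of −0.85. Past the threshold were 5, beside 0.0707% of all genes. The list includes genes that were known to be lower in these mice when it was drawn up, so these counts describe it and test nothing. The 5, named after their values were seen, were Apold1 (3.04 ± 0.421 against 29.4 ± 6.85 CPM), Klf2 (5.58 ± 0.976 against 26.4 ± 3.35), Klf4 (4.10 ± 0.525 against 16.8 ± 0.656), Btg2 (7.56 ± 0.593 against 18.1 ± 2.89) and Klf6 (32.3 ± 1.47 against 49.9 ± 2.46 CPM). Klf2, Klf4 and Klf6 encode zinc finger factors. Apold1, Klf2 and Klf4 passed without each of the 6 mice in turn, and the count was 3 to 5 over these and the full set and 11 with DESeq2 without a filter. The share of all genes that DESeq2 called is not given, so its counts in this paragraph have no background beside them. At the other end, Ier5 was at 11.3 ± 0.853 against 9.72 ± 0.475 CPM. Against control mice, 22 of 24 were lower in value, with a median of −0.67, and 3 passed (Apold1, Btg2 and Klf2), beside 0.0707% of all genes. The count of 3 became 0 without each irisin pre-treated mouse or control mouse 3. It was 1 without control mouse 1, 2 without control mouse 2 and 8 with DESeq2. Between MPTP and control mice 17 of 24 were higher in value, and 1 passed as higher, beside 0.0221% of all genes. This was Klf4 (16.8 ± 0.656 against 6.38 ± 0.807 CPM). The count was 0 without MPTP mouse 1, MPTP mouse 3 or control mouse 2, and 5 with DESeq2.

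In the delayed treatment experiment, 14 of the 24 immediate early genes were lower in value in MPTP than in control mice and 10 were higher. Of the 24, 3 passed as lower, beside 0.132% of all genes, and these were named after their values were seen. Btg2 was at 11.1, 11.2 and 10.4 CPM in MPTP mice and 34.4, 26.5 and 60.2 CPM in controls, and its log2 fold change was −1.89 (SE 0.27, edgeR adjusted p = 0.0236). Zfp36, which encodes an mRNA-destabilising protein, was at 6.25, 5.82 and 7.76 against 18.3, 14.3 and 28.9 CPM, with a log2 fold change of −1.63 (SE 0.25, edgeR adjusted p = 0.0361). Apold1 was at 4.11, 4.43 and 2.98 against 16.3, 14.2 and 37.5 CPM, with a log2 fold change of −2.56 (SE 0.38, edgeR adjusted p = 0.0308). No MPTP mouse reached a control mouse in any of the 3, and control mouse 3 was the highest in each. The count of 3 was 2 without control mouse 1 or control mouse 3, 5 without control mouse 2 and 0 without any one of the MPTP mice. It was also 0 with only the 2 compared groups and with limma on log2(FPKM + 1), and 7 with DESeq2 without a filter. Counts with DESeq2 again have no share of all genes beside them. The median of the 24 was −0.27 with MPTP, 0.24 with irisin alone and 0.19 with irisin after MPTP, and 0 of 24 passed in the last 2 comparisons. For irisin after MPTP, DESeq2 without a filter called 5 (Apold1, Btg2, Ccn1, Dusp1 and Zfp36) and edgeR on only the 2 compared groups called 1 (Ccn1), whereas DESeq2 called 0 for irisin alone. Apold1 was at 40.1 ± 11.5 CPM with irisin alone and 13.2 ± 3.18 CPM with irisin after MPTP. Npas4, a factor made only on neuronal activity, was at 5.49 ± 1.71 CPM with irisin alone against 7.33 ± 1.53 CPM in control mice (adjusted p = 0.627 in edgeR).

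**Figure D5:**
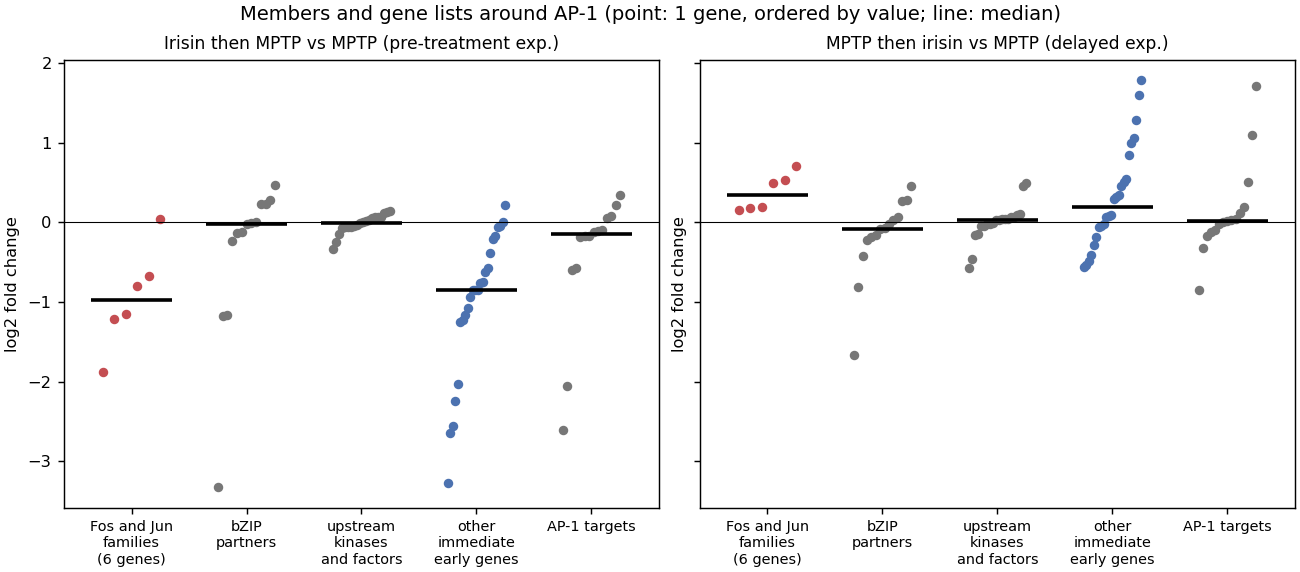
Log2 fold change of each gene (points, ordered by value within a list) and the median (lines) for 6 members and 4 gene lists, in irisin pre-treated against MPTP mice and in delayed irisin against MPTP mice. On the left the members (median −0.98) and the other immediate early genes (−0.85) lie mostly below 0, and the upstream genes lie close to 0. On the right the same lists have medians of 0.34 and 0.19.

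Of the other leucine zipper proteins that pair with Fos or Jun, 13 of 14 were tested in the pre-treatment experiment. By edgeR, Atf3, a stress-induced factor, was the single one past the threshold, in irisin pre-treated against MPTP mice, beside 0.0707% of all genes. DESeq2 without a filter called Atf3 in that comparison, in irisin pre-treated against control mice and in MPTP against control mice. No share of all genes called by DESeq2 is given beside these calls. Atf3 was at 4.35, 6.30 and 4.85 CPM in MPTP mice, 0.480, 0.746 and 0.316 CPM in irisin pre-treated mice and 1.10, 1.83 and 1.58 CPM in control mice, and was 10.0-fold lower in pre-treated than in MPTP mice. Its call by edgeR was lost without irisin pre-treated mouse 1 or mouse 3. Atf3 was at 5.30 ± 2.05 CPM with irisin alone against 2.40 ± 2.004 CPM in control mice (adjusted p = 0.545 in edgeR). Mafg, a small Maf protein, was at 102 ± 4.38 against 73.9 ± 29.1 CPM in pre-treated and MPTP mice. Batf2 was at or under 0.181 CPM on average in the groups of the delayed treatment experiment other than irisin alone, at 0.0223 CPM there. In the delayed treatment experiment 0 of 14 passed in any comparison, by DESeq2 as well.

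The list upstream of Fos and Jun holds MAP kinases, their activators and the factors they phosphorylate, such as SRF, Elk and Mef2 proteins. Of these 20 genes 0 passed in any comparison, by edgeR or DESeq2, and the medians lay between −0.01 and 0.04. Mef2a, which encodes a MADS box factor, was at 89.4 ± 36.3 CPM in irisin pre-treated and 113 ± 11.4 CPM in MPTP mice. With irisin alone, Rps6ka3, which encodes the kinase RSK2, was at 17.4 ± 5.85 against 8.98 ± 2.52 CPM in control mice (adjusted p = 0.408 in edgeR), and Mapk10, which encodes JNK3, was at 237 ± 9.19 against 277 ± 74.8 CPM. Transcript levels do not show phosphorylation, through which these proteins act.

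Genes that AP-1 is known to activate, such as matrix proteases, Ccl2 and Timp1, passed in 0 of 14 tested cases in the pre-treatment experiment and 0 of 15 in the delayed treatment experiment by edgeR. DESeq2 called 1, Plaur, in irisin pre-treated against MPTP mice, with no share of all genes given beside it. The medians lay between −0.15 and 0.11. Ccl2, a chemokine, was at 0.0366 ± 0.0634 CPM in irisin pre-treated and 0.231 ± 0.0685 CPM in MPTP mice, a level of few counts, and Timp1, a protease inhibitor, was at 0.423 ± 0.250 and 0.333 ± 0.111 CPM. Mmp13 was at 0.839 ± 0.792 CPM with irisin alone and 0.174 ± 0.234 CPM in control mice (adjusted p = 0.710 in edgeR), with a spread as large as its mean.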

How the data were processed

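RNA of 21 mice was sequenced on an Illumina NovaSeq. The authors counted reads per gene with featureCounts and deposited raw counts and FPKM values in 2 tables. The labels name mm9, HISAT, StringTie and edgeR with no role, whereas 91.9% and 86.9% of the gene coordinates equal those of GENCODE M21 (GRCm38). The use of strand is not given in the sources used here.

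Counts of each experiment were tested in one fit of all its groups with edgeR 4.0.16 in R 4.3.3 (filterByExpr, least count 10 and least total 15; TMM; quasi-likelihood test, two-sided; Benjamini-Hochberg over all tested genes, threshold 0.05). The SE is the log2 fold change divided by the square root of F. CPM were TMM scaled, and log2(CPM + 0.5) was used for correlations. The alternatives were median ratio scaling, all genes with any count, the 2 compared groups only, a replicate block, DESeq2 1.42.0 without a filter, limma 3.58.1 on log2 FPKM and leaving out each mouse. Steps were tested on simulated counts.

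The members and gene lists were chosen with earlier results of these data known. Of each list, the genes with the largest and the smallest log2 fold change were named, in irisin pre-treated against MPTP mice and in irisin against control mice, except 1 gene that is not reported here, and other names were chosen after their values were seen. Same-numbered mice were different animals, with correlations of deviations from −0.103 to 0.160, so mice were not paired. No 2 mice of a group agreed within sampling noise. Nothing states separate litters or cages, so p-values measure the spread between these mice. The smallest two-sided exact permutation p of 3 mice against 3 is 0.1.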

Additional observations from a re-analysis of the deposited data

Results flagged for a closer look

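For 3 members, mice given irisin before or after MPTP did not overlap with the MPTP mice of their experiment, and the differences lay in opposite directions. Taken singly, 14.2% and 10.7% of all genes did not overlap in these comparisons, and the share meeting both was not counted. The pre-treatment comparison was treated as having chosen the family. Fos was lower with irisin before MPTP (log2 fold change −1.88) and higher with irisin after MPTP (0.49). Fosb was at −1.16 and 0.53, and Jun at −0.67 and 0.16. None of the 3 passed the test with irisin after MPTP (edgeR adjusted p = 0.9995 for each). For Jun, the lowest delayed irisin mouse, at 12.60 FPKM, was barely above the highest MPTP mouse, at 12.58 FPKM. The difference between the experiments was not tested, since the tables were made separately, the MPTP mice of the experiments had vehicle on different sides of MPTP, and the time from the last MPTP injection differed with the order of treatment.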

How the results depend on the processing

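The counts of members past the threshold in the pre-treatment experiment depended on the setting. Against MPTP mice, 2 became 1 with only the 2 compared groups (Fos) or with limma on log2(FPKM + 1) without a filter (Jun), 4 with DESeq2 without a filter, and 0 to 1 when each mouse was left out. Against control mice, 2 became 1 with all genes of any count, 3 with DESeq2 (Fos, Jun and Junb), 0 with only the 2 compared groups and with each of the 3 limma settings, and 0 to 1 when each mouse was left out. With DESeq2, MPTP against control mice in the delayed treatment experiment went from 0 to 3. Shares of all genes called under the alternatives are not given, so counts with DESeq2 have no background beside them. The sign of Jun with irisin alone turned at 0.0029 (median ratio scaling), 0.0047 (any count), 0.0054 (DESeq2), 0.0059 (limma, log2(FPKM + 1), with and without a filter), 0.0060 (limma, log2(FPKM + 0.1)) and between −0.11 and 0.088 when each mouse was left out, and the interaction of Fosb was −0.0028 without control mouse 3 at the lowest and 0.52 at the highest. The counts of immediate early genes moved more, to 11, 8 and 5 with DESeq2 in the pre-treatment experiment and to 7 with MPTP and 5 with irisin after MPTP in the other. Of all 618 log2 fold changes of members under the alternatives, 593 kept their direction, 575 kept their side of the threshold, 37 lost a call, all of Fos and Jun in the pre-treatment experiment, and 6 gained one, all with DESeq2. The cause of the other changes was not tested.

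With the replicate number as a block, 0 members passed in both comparisons of irisin pre-treated mice. The numbers did not pair the mice, so this is the count of a fit with fewer residual degrees of freedom. Differences of Fosl1 are limited by its counts.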
